A study of Mus musculus with 6 samples.

Results

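Genes of tumour necrosis factor (TNF), Toll-like receptor and NF-kB signalling were examined in mouse hearts after a cardioplegic arrest. They were taken by symbol from the protein-coding transcripts of the study (TNF ligands, receptors and induced proteins, TRAF, TLR, NLR, IRAK, RIPK, NF-kB and IkB, IKK, TNIP and caspase genes, with Cd14), which gave 54 genes with 60 transcripts, of 8969 protein-coding genes in all. The rule used names only and no measured value, but it was chosen with earlier results of these data known. Isolated hearts of male mice were kept on Langendorff perfusion, in which fluid is driven through the coronary vessels. The 3 I/R (ischaemia and reperfusion) hearts are labelled as 30 min of ischaemia and 1 h of reperfusion, and per the labels' protocol a cardioplegic solution stopped their beating for the 30 min. The 3 Sham hearts were not stopped. Strain, age and genotype are not given in the labels, and both groups had been isolated and perfused. An isolated heart on this apparatus has no circulating blood, so immune cells are those that the tissue still held.

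Receptors of the TNF family and Toll-like receptors recruit adaptors and kinases that activate the IKK complex. IKK marks the IkB proteins for degradation, which frees NF-kB dimers to enter the nucleus. NF-kB then induces inflammatory genes together with several of its own inhibitors, among them IkB genes, so that a new supply of inhibitor ends the response. In the heart, cardiomyocytes, endothelial cells, fibroblasts and resident macrophages all carry parts of this pathway, and molecules released by injured cells can engage Toll-like receptors.

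The promoters of 3 genes are shown because the results turn on how an inhibitor, a ligand and a receptor of the pathway differ between the groups. They were chosen with the results known, and no relation of motifs to changes was tested. Each is the stretch of 250 bases that ends just before the annotated start, from RefSeq (GRCm38.p6). Capitals mark matches to the NF-kB consensus (kappaB), to the AP-1 motif TGANTCA or to the TATA motif TATAAA, searched on both strands, and no marked matches overlap.
Nfkbie, chr17:45555450-45555699, + strand: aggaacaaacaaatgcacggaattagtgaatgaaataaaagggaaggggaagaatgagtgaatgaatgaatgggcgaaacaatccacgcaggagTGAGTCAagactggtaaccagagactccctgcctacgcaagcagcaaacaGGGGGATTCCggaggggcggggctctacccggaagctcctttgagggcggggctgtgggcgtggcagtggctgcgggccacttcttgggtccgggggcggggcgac
Tnf, chr17:35202008-35202257, - strand: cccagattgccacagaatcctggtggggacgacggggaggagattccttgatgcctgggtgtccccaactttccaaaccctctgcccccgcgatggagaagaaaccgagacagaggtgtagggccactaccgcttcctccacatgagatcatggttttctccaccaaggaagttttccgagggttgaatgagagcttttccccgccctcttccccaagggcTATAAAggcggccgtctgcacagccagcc
Tnfrsf21, chr17:43016305-43016554, + strand: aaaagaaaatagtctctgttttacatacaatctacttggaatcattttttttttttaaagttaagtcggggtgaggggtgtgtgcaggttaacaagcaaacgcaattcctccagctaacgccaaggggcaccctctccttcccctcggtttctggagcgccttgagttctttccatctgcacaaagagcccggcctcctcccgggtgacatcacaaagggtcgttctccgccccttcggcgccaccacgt
In Nfkbie the kappaB match lies at -106 to -97 from the start and the TGANTCA match at -156 to -150. In Tnf the TATAAA match lies at -29 to -24. In Tnfrsf21 none of these letters was found in the window. Of 32851 RefSeq promoters cut in the same way, 3.9% held a kappaB match, 6.75% TGANTCA and 12.4% TATAAA. Of the 44 examined genes with a promoter in RefSeq, 4 held a kappaB match (Nfkbie, Tlr2, Tnfrsf9 and Tnip3), 7 held TGANTCA and 6 held TATAAA.

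The authors gave abundance as FPKM, a level corrected for transcript length and sequencing depth, and the values of a gene's transcripts were added up. The totals behind the protein-coding values were inferred from the values themselves. They were 7690040 to 8896834 reads in I/R hearts and 7233171 to 9902397 reads in Sham hearts. The listed transcripts held 38.1% to 39.9% of these totals in I/R hearts and 36.8% to 38.3% in Sham hearts. How much of a gene's signal fell on transcripts outside the table is not known. No values were analysed here for 12 central genes of the pathway, namely Tnfrsf1a, Myd88, Nfkb1, Rel, Rela, Nfkbia, Nfkbiz, Tnfaip3, Tnip1, Irak3, Ripk1 and Birc3. All replicates of a group differed by more than sampling noise. In bulk tissue, fewer cells of a type and less RNA per cell cannot be told apart.

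Of the 54 genes, 27 reached the filter of 0.5 FPKM, as an average of the 6 hearts, and were tested, and 27 were under it. All 27 tested genes had at least 0.5 FPKM in the mean of each group. Just inside the filter lay Tnip3 and Casp8, with means of 0.578 and 0.602 FPKM, and just outside it Tnfsf13b and Tnfaip8l3, with 0.451 and 0.447 FPKM. Tested genes rested on 36 to 9401 reads over the 6 hearts (median 246), and those under the filter on 1 to 116 reads. A change is the difference in mean log2(FPKM + 1), I/R minus Sham, given ± SE with n = 3 hearts per group. The added 1 shrinks the fold change of weakly expressed genes, and 9 of the 27 tested genes averaged under 1 FPKM.

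The inhibitors Nfkbie and Nfkbib, the lipopolysaccharide receptor gene Cd14 and the secreted protein gene Tnfaip6 were higher in I/R hearts at an unadjusted p under 0.05, while the changes of the abundant receptor genes Tlr4 and Tnfrsf21 were 0.14 and 0.04. None of these genes passed the adjustment over all genes. With limma, 0 of 12114 genes had an adjusted p under 0.05 (smallest 0.385, 1023 at an unadjusted p under 0.05), and limma voom on the recovered reads also called 0 (1012 at an unadjusted p under 0.05). Among the 27 tested genes, 4 were higher in I/R at an unadjusted p under 0.05 (14.8%) and 0 were lower. Over all 5041 protein-coding genes tested, 5.1% had such a p, 3.43% higher and 1.67% lower in I/R. With the lncRNAs included it was 8.44% of 12114 genes, 4.23% higher and 4.21% lower. Every I/R heart lay above every Sham heart for 3 of the 27 (11.1%), against 8.83% of protein-coding genes, and every I/R heart lay below for 0 of the 27, against 5.12% (13.9% in either direction). Over all 12114 genes these shares were 7.1% above and 6.57% below, 13.7% together. With no filter the groups stood apart for 3 of 54 genes upwards (5.56%, against 6.76% of all 8969 protein-coding genes) and for 2 of 54 downwards (3.7%, against 4.71%), so the share of separated genes was near the background. The median change over the 27 tested genes was 0.06, and over all protein-coding genes tested it was 0.02. The 27 genes came from a set chosen with earlier results of these data known, so these shares are a description.

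**Figure D1:**
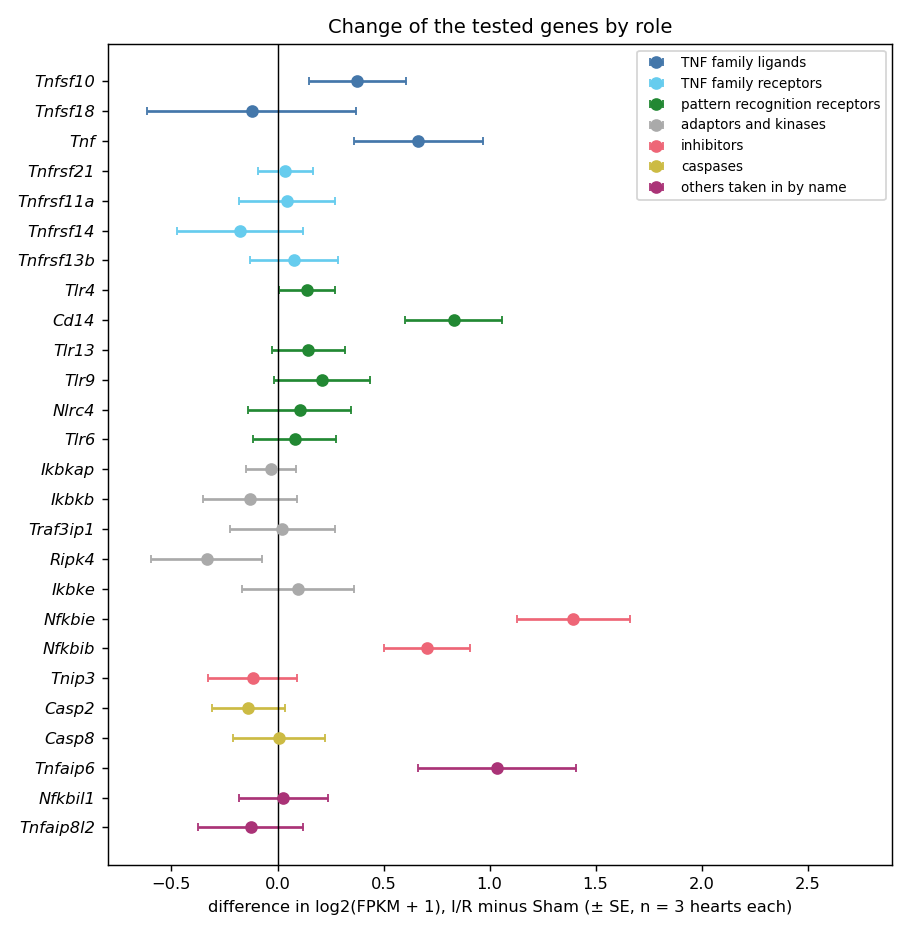
Change of the tested genes described here, as the difference in log2(FPKM + 1), I/R minus Sham, with bars of ± SE (3 hearts per group) and colours for the role; within a role the most abundant gene is on top. Nfkbie (1.39), Tnfaip6 (1.04), Cd14 (0.83) and Nfkbib (0.71) lie farthest to the right, and most receptors, adaptors and caspases lie near 0.

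As direct inhibitors of NF-kB signalling 3 genes were grouped, and all were tested. Nfkbie (ENSMUSG00000023947, GRCm38 chromosome 17, 45555716 to 45563169) encodes IkB epsilon, an inhibitor that holds NF-kB dimers in the cytoplasm and that NF-kB itself can induce. It was at 3.49, 5.15 and 2.74 FPKM in I/R replicates 1, 2 and 3, from 65, 111 and 52 reads, against 0.709, 1.2 and 0.514 FPKM in Sham replicates 1, 2 and 3, from 17, 28 and 9 reads. The lowest I/R heart was above the highest Sham heart, so the groups did not overlap. The change was 1.39 ± 0.27 (limma, unadjusted p = 0.00127, adjusted p = 0.386), and the group means of 3.79 ± 1.23 FPKM in I/R and 0.807 ± 0.353 FPKM in Sham (SD, n = 3 each) differed 4.70-fold. Without each heart in turn the change was between 1.20 and 1.56.

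Nfkbib (ENSMUSG00000030595, chromosome 7, 28758251 to 28767512) encodes IkB beta, a second cytoplasmic inhibitor of NF-kB. It was at 2.08, 2.29 and 1.8 FPKM in I/R hearts, from 33, 42 and 29 reads, against 0.98, 1.06 and 0.604 FPKM in Sham hearts, from 20, 21 and 9 reads. Here too every I/R heart lay above every Sham heart, with a change of 0.71 ± 0.20 (limma, unadjusted p = 0.0105, adjusted p = 0.457) and means of 2.06 ± 0.247 FPKM in I/R and 0.88 ± 0.242 FPKM in Sham. Sirt2, a deacetylase gene on the opposite strand, overlaps Nfkbib by 778 bases, and without a stated strand setting reads of the overlap cannot be assigned. Sirt2 was at 5.53, 4.19 and 4.41 FPKM in I/R hearts, against 5.82, 5.49 and 5.81 FPKM in Sham hearts (-0.24 ± 0.18; limma, unadjusted p = 0.218). The part of reads from the overlap in the change of Nfkbib was not tested.

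Tnip3, the third inhibitor, encodes a partner of the ubiquitin-editing inhibitor of NF-kB that Tnfaip3 encodes. It was at 0.552, 0.686 and 0.305 FPKM in I/R hearts, against 0.429, 0.688 and 0.807 FPKM in Sham hearts. The groups overlapped, and the change was -0.12 ± 0.21 (limma, unadjusted p = 0.593, adjusted p = 0.922) on 48 reads in I/R and 63 in Sham. The inhibitors were therefore not uniform, with a median change of 0.71 over the 3 genes and a range from -0.12 to 1.39. Counting Tnfaip8l2, which inhibits Toll-like signalling and is described with the genes taken in by name, the median over 4 genes was 0.29, a grouping chosen after the values were seen.

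**Figure D2:**
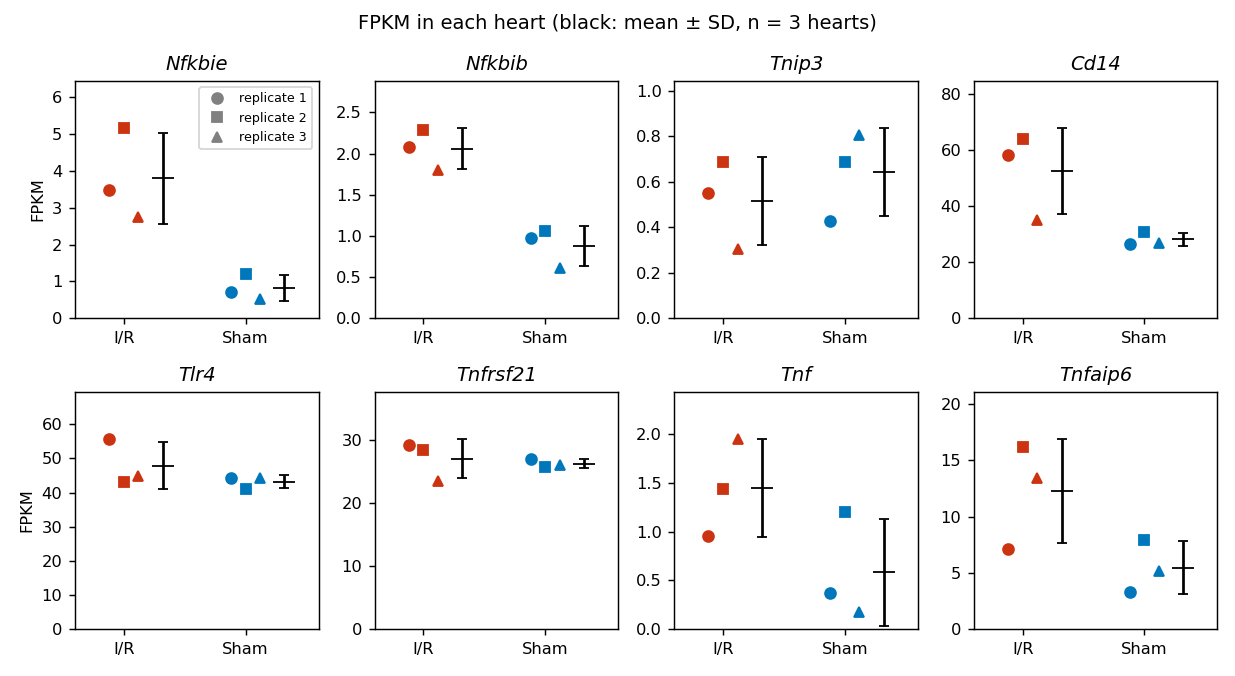
FPKM (vertical axis, from 0) of 8 genes in each heart, I/R left of Sham, with a marker shape for each replicate number and the mean ± SD of 3 hearts in black. For Nfkbie, Nfkbib and Cd14 all I/R hearts lie above all Sham hearts, whereas for Tnip3, Tlr4, Tnfrsf21, Tnf and Tnfaip6 the groups overlap.

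Receptors made up 20 of the 54 genes, and 10 of them were tested. Their median change was 0.09, from -0.18 to 0.83, with 1 of 10 at an unadjusted p under 0.05 (5.1% of protein-coding genes tested). Among receptors for microbial and damage signals, Tlr4 (ENSMUSG00000039005, chromosome 4, 66827584 to 66930284) had the highest mean over the 6 hearts of the 54 genes (45.6 FPKM, against 40.2 FPKM for Cd14, which was above it in the mean of I/R hearts) and encodes the Toll-like receptor for lipopolysaccharide. It was at 55.7, 43.2 and 45.0 FPKM in I/R hearts, against 44.4, 41.0 and 44.2 FPKM in Sham hearts. Except for I/R replicate 1, all hearts lay within a few FPKM of each other, and the change was 0.14 ± 0.13 (limma, unadjusted p = 0.321, adjusted p = 0.83) on 1297 to 1781 reads per heart. Of its 2 listed transcripts, the longer one (4077 bases) held nearly all of this, and the shorter one (1866 bases) was at 0.488, 0.0602 and 1.16 FPKM in I/R hearts, against 0.487, 0.278 and 0.37 FPKM in Sham hearts, from at most 17 reads.

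Cd14 (ENSMUSG00000051439) encodes the surface protein that hands lipopolysaccharide to the complex of TLR4. It was at 58.2, 63.9 and 35.0 FPKM in I/R hearts, against 26.6, 30.9 and 26.9 FPKM in Sham hearts. The groups did not overlap, but I/R replicate 3 stood close to the highest Sham heart. The change was 0.83 ± 0.23 (limma, unadjusted p = 0.00874, adjusted p = 0.442), and in fits that each omitted a single heart it was lowest at 0.67 (I/R replicate 2 omitted) and highest at 1.09 (I/R replicate 3 omitted). The ratio of Cd14 to Tlr4 within a heart was 1.05, 1.48 and 0.778 in I/R hearts, against 0.599, 0.753 and 0.609 in Sham hearts. The ratio of Nfkbie to Tlr4 was 0.0627, 0.119 and 0.061 in I/R hearts, against 0.016, 0.0292 and 0.0116 in Sham hearts. Both pairs were chosen after the values were seen, so the ratios are a description.

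Cd14 and several of the other receptors for microbial signals are made by macrophages, among other cells. Of 10 macrophage markers 5 were analysed, with a summed level of 1087 to 1204 FPKM in I/R hearts, against 891 to 1077 FPKM in Sham hearts, and 4 of the 5 had a higher mean in I/R. C1qb was the only one of the 5 whose groups did not overlap, at a ratio of means of 1.15, beside a ratio of 1.86 for Cd14. The 3 neutrophil markers analysed (Elane, Retnlg and S100a8) summed to 0.132 to 0.345 FPKM in I/R hearts and 0 to 0.812 FPKM in Sham hearts. A higher mean in I/R was seen for 1 of the 3. S100a8 was at 0.427 FPKM in Sham replicate 2, from at least 1 read, and at 0 in all other hearts. The 4 lymphocyte markers analysed summed to 0.752 to 1.42 FPKM in I/R hearts and 1.22 to 1.85 FPKM in Sham hearts. Ventricular cardiomyocyte markers (7 of 8 analysed) summed to 401 to 427 FPKM in I/R hearts, below the 507 to 538 FPKM of Sham hearts, with 1 of the 7 higher in I/R. Fibroblast markers (6 of 7) summed to 298 to 337 FPKM in I/R and 212 to 289 FPKM in Sham, with a higher mean in I/R for 5 of the 6. Endothelial markers (4 of 8) summed to 119 to 151 FPKM in I/R and 104 to 127 FPKM in Sham, with a higher mean in I/R for 2 of the 4. Most of that sum was Kdr, at a mean of 129 FPKM in I/R and 102.5 FPKM in Sham, and Tie1 was lower in every I/R heart than in every Sham heart (-0.61 ± 0.21). The part of these markers in the changes of Cd14, Nfkbie and Nfkbib was not tested.

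The other tested pattern recognition receptors had small positive changes with overlapping groups. Tlr13, which in mice recognises bacterial ribosomal RNA, was at 4.87, 4.96 and 5.13 FPKM in I/R hearts, against 4.13, 4.14 and 5.01 FPKM in Sham hearts (0.15 ± 0.17). Sham replicate 3 was as high as the I/R hearts. Tlr9, a receptor for bacterial DNA, differed by 0.21 ± 0.23, the inflammasome receptor gene Nlrc4 by 0.10 ± 0.24 and Tlr6, a partner of TLR2, by 0.08 ± 0.20. Tlr2 itself was under the filter, at 0.302, 0.41 and 0.509 FPKM in I/R hearts, against 0.402, 0.275 and 0.505 FPKM in Sham hearts, which is no more than 12 reads in any heart. Its levels overlapped almost fully. Tlr12, Tlr5, Nlrc5 and Nlrx1 had 4 to 10 reads over the I/R hearts and 3 to 13 over the Sham hearts. For Tlr5, the receptor for flagellin, all I/R hearts were below all Sham hearts, but on 4 and 13 reads.

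Of 9 receptor genes of the TNF family, 4 were tested, with changes from -0.18 to 0.08 and overlapping groups. Tnfrsf21 (ENSMUSG00000023915, chromosome 17, 43016555 to 43089188), a death domain receptor whose promoter is shown above, was at 29.3, 28.4 and 23.6 FPKM in I/R hearts, against 27.1, 25.7 and 26.1 FPKM in Sham hearts. The I/R hearts lay on both sides of the Sham hearts (0.04 ± 0.13; limma, unadjusted p = 0.786, adjusted p = 0.964). Tnfrsf11a, which encodes RANK, was at 2.25, 1.45 and 2.26 FPKM in I/R hearts, against 2.07, 2.21 and 1.4 FPKM in Sham hearts (0.05 ± 0.23). Tnfrsf14, which encodes the herpesvirus entry mediator, was at 0.755, 0.816 and 0.927 FPKM in I/R hearts, against 2.05, 0.452 and 1.0 FPKM in Sham hearts (-0.18 ± 0.30), so its Sham mean rested on Sham replicate 1, without which the change was 0.10. Tnfrsf13b, which encodes TACI, was at 0.712, 0.792 and 0.85 FPKM in I/R hearts, against 0.672, 1.01 and 0.433 FPKM in Sham hearts (0.08 ± 0.21). Tnfrsf1b, the second TNF receptor gene, was at 0.0341, 0.0294 and 0.0669 FPKM in I/R hearts, from 4 reads, against 0.106, 0.0543 and 0 FPKM in Sham hearts, from 6 reads, and no difference could be detected at this depth. Tnfrsf17, a receptor gene of plasma cells, had 1, 1 and 0 reads in I/R hearts and 5, 4 and 1 in Sham hearts. In FPKM all I/R hearts were below all Sham hearts, but Sham replicate 3 had no more reads than I/R replicates 1 and 2. Tnfrsf11b, Tnfrsf9 and Tnfrsf19 had 30, 3 and 0 reads in I/R and 16, 5 and 1 in Sham.

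Of 9 ligand genes, 3 were tested. Tnf (ENSMUSG00000024401, chromosome 17, 35199381 to 35202007), the founding ligand of the family, was at 0.952, 1.44 and 1.95 FPKM in I/R hearts, from 12, 21 and 25 reads, against 0.37, 1.2 and 0.169 FPKM in Sham hearts, from 6, 19 and 2 reads. Sham replicate 2 lay among the I/R hearts, and the groups overlapped. The change was 0.66 ± 0.30 (limma, unadjusted p = 0.0655, adjusted p = 0.61). With each heart left out in turn it ran from 0.47 without Sham replicate 3 (unadjusted p = 0.19) to 0.93 without Sham replicate 2 (unadjusted p = 0.0149, adjusted p = 0.519), and only in the last of these 6 limma fits was the unadjusted p under 0.05.

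Tnfsf10, which encodes the death ligand TRAIL, was the most abundant ligand, at 16.0, 12.5 and 14.0 FPKM in I/R hearts, against 14.0, 11.1 and 7.67 FPKM in Sham hearts (0.38 ± 0.23; limma, unadjusted p = 0.145, adjusted p = 0.718). The groups overlapped and Sham replicate 3 was the lowest. Without Sham replicate 3 the change was 0.16, and without Sham replicate 1 it was 0.56 (limma, unadjusted p = 0.0467, adjusted p = 0.691). Tnfsf18, the ligand of the T cell receptor GITR, was at 0.692, 1.74 and 4.64 FPKM in I/R hearts, against 1.47, 4.12 and 1.67 FPKM in Sham hearts (-0.12 ± 0.49), a spread within groups far above the difference between them. The other 6 ligand genes had 3 to 41 reads over the I/R hearts and 0 to 75 over the Sham hearts. Tnfsf14 reached 20 reads in I/R replicate 2 and at most 6 in any other heart.

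**Figure D3:**
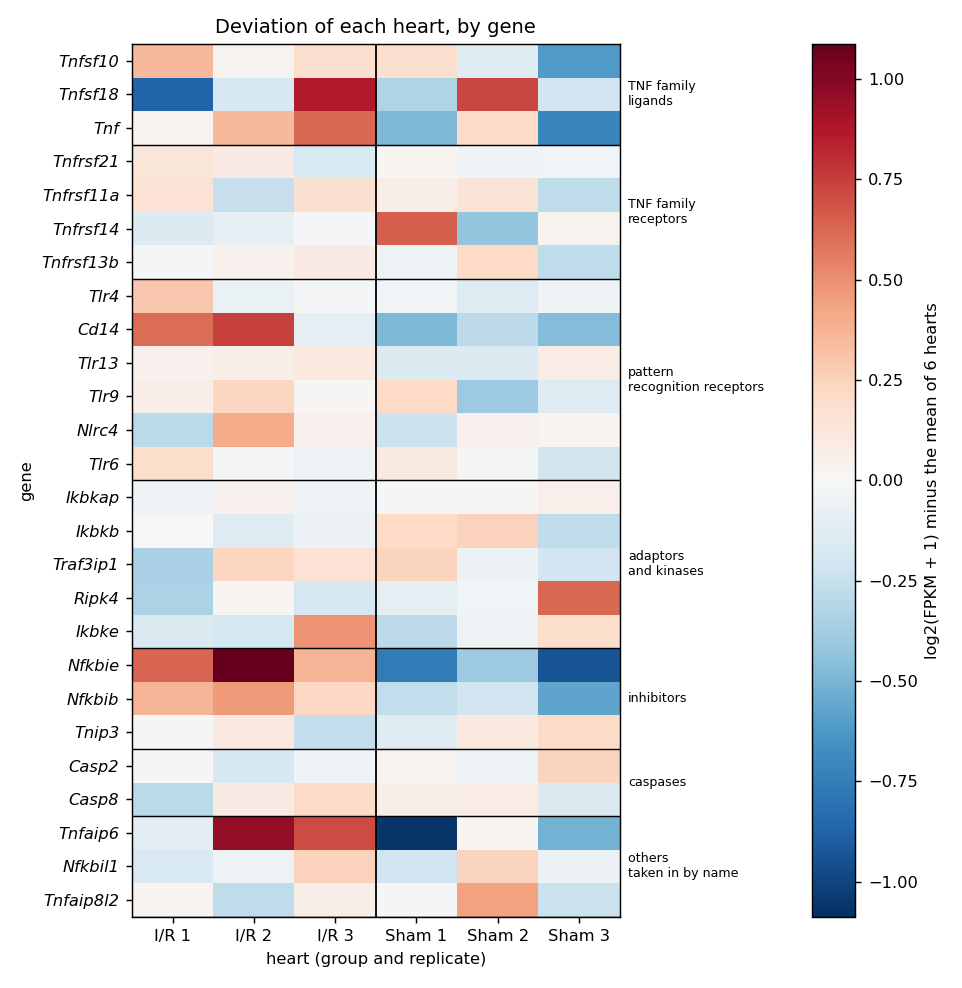
Deviation of each heart from the mean of the 6 hearts, in log2(FPKM + 1), for the tested genes described here (down the page, by role) in I/R replicates 1 to 3 (left) and Sham replicates 1 to 3 (right); red is above and blue below the mean. Nfkbie, Nfkbib and Cd14 separate the groups, and Tnf, Tnfaip6 and Tnfsf18 differ widely between hearts of a group.

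Adaptors and kinases made up 12 genes, of which 5 were tested, with a median change of -0.03. At an unadjusted p under 0.05 were 0 of 5, beside 5.1% of protein-coding genes tested. The symbol rule took in Ikbkap and Traf3ip1, which are known for other functions, and without them the median over 3 genes was -0.13. Ikbkb encodes IKK beta, the kinase that marks IkB proteins for degradation. Summed over its 2 transcripts it was at 0.883, 0.707 and 0.803 FPKM in I/R hearts, against 1.18, 1.24 and 0.556 FPKM in Sham hearts (-0.13 ± 0.22). The 2 transcripts differed in sign, but both rested on few reads. The transcript of 3977 bases was at 0.883, 0.707 and 0.803 FPKM in I/R hearts, from 27, 25 and 25 reads, against 0.508, 0.548 and 0.556 FPKM in Sham hearts, from 20, 21 and 16 reads. For it every I/R heart was above every Sham heart. This also held for 8.83% of protein-coding genes tested, with transcripts summed per gene, and no share over single transcripts was taken. The other transcript was at 0 FPKM in I/R hearts, against 0.673, 0.691 and 0 FPKM in Sham hearts, and these values set the sign of the sum. Its recovered length of 300 bases, with 2, 2 and 0 reads in Sham hearts, is the smallest that fits. A longer transcript with more reads would fit as well. With the most abundant transcript alone the change of Ikbkb was 0.22 (limma, unadjusted p = 0.242, adjusted p = 0.788).

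Ikbke, which encodes a kinase related to the IKK subunits, differed by 0.10 ± 0.27 on 27 reads in I/R and 33 in Sham. Ikbkap, taken in by its older name, encodes a subunit of the Elongator complex, and was at 18.9, 20.2 and 19.0 FPKM in I/R hearts, against 19.3, 19.8 and 20.4 FPKM in Sham hearts (-0.03 ± 0.12). All 6 hearts lay between 18.9 and 20.4 FPKM. Traf3ip1, a gene of cilia, was at 0.461, 1.2 and 1.08 FPKM in I/R hearts, against 1.21, 0.781 and 0.613 FPKM in Sham hearts (0.02 ± 0.25), and Ripk4, a kinase gene known from skin, differed by -0.33 ± 0.26 with Sham replicate 3 highest at 1.81 FPKM. The other 7 genes of this role (Ikbkg, Irak4, Ripk3, Traf1, Traf3ip2, Traf5 and Traf6) had 1 to 33 reads over the I/R hearts and 1 to 43 over the Sham hearts.

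Of 5 caspase genes, 3 were tested. Casp2 was at 6.3, 5.38 and 6.01 FPKM in I/R hearts, against 6.35, 5.94 and 7.52 FPKM in Sham hearts (-0.14 ± 0.17). Casp8, which death receptors activate, was at 0.302, 0.696 and 0.84 FPKM in I/R hearts, against 0.664, 0.682 and 0.428 FPKM in Sham hearts (0.01 ± 0.22). For both of these the groups overlapped, and the sign of the small change of Casp8 turned when single hearts were left out. Casp6 and Casp12 had 2 and 1 reads in I/R and 5 each in Sham.

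Of 5 further genes taken in by name, 3 were tested. Tnfaip6 (ENSMUSG00000053475, chromosome 2, 52038009 to 52056686) is induced by TNF and encodes a secreted protein that binds hyaluronan and dampens inflammation. It was at 7.15, 16.2 and 13.4 FPKM in I/R hearts, from 94, 246 and 180 reads, against 3.25, 7.94 and 5.17 FPKM in Sham hearts, from 55, 131 and 64 reads. I/R replicate 1 lay below Sham replicate 2, so the groups overlapped. The change was 1.04 ± 0.37 (limma, unadjusted p = 0.0275, adjusted p = 0.527). The unadjusted p was above 0.05 without I/R replicate 2 (0.0936), I/R replicate 3 (0.0801), Sham replicate 1 (0.0894) or Sham replicate 3 (0.0652).

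Nfkbil1, related to IkB proteins by sequence, was at 4.31, 4.74 and 6.09 FPKM in I/R hearts, against 4.12, 6.02 and 4.68 FPKM in Sham hearts (0.03 ± 0.21). Tnfaip8l2, an inhibitor of Toll-like and T cell receptor signalling, was at 1.97, 1.4 and 2.05 FPKM in I/R hearts, against 1.89, 2.96 and 1.48 FPKM in Sham hearts (-0.13 ± 0.25). Neither separated the groups. Tnfaip8l3 and Irak1bp1 were under the filter, with 37 and 17 reads in I/R and 62 and 22 in Sham.

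Over Nfkbie, Nfkbib, Cd14, Tnfaip6 and Tnf, Sham replicate 2 was the highest Sham heart for 5 of 5 genes, and I/R replicate 2 was the highest I/R heart for 4 of 5, all but Tnf. Hearts of a group thus differed in the same direction for several genes. The median deviation of the 3 inhibitors from their mean over the 6 hearts was 0.37, 0.46 and 0.23 in I/R hearts, against -0.27, -0.215 and -0.574 in Sham hearts. That of the 10 receptors was 0.10, 0.06 and 0.00231 in I/R hearts, against -0.00305, -0.10 and -0.09 in Sham hearts. The inhibitors stood farther apart than the receptors, but rested on 3 genes at no more than 2.30 FPKM in the mean over hearts, and no test compared the sets.

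**Figure D4:**
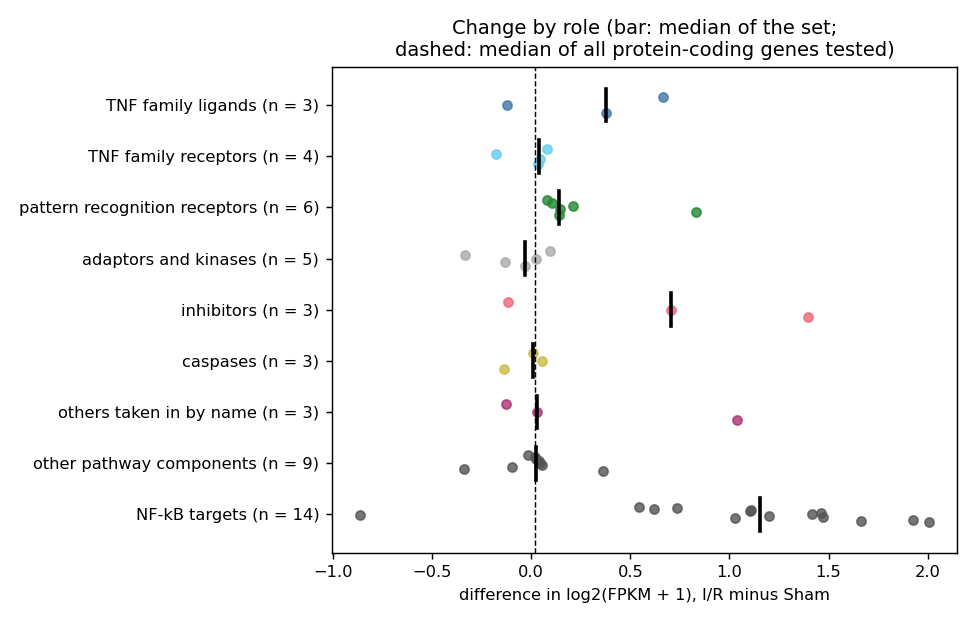
Change of single tested genes (points) as the difference in log2(FPKM + 1), I/R minus Sham, by role and for 2 further lists of pathway genes; black bars are medians and the dashed line is the median of all protein-coding genes tested (0.02). The medians of the inhibitors (0.71) and the NF-kB targets (1.16) lie to the right, and those of the receptors, adaptors and other components lie near the dashed line. Single genes depart from their set, such as Cd14 (0.83) among the receptors, Tnip3 (-0.12) among the inhibitors and Bcl2l1 (-0.86) among the targets.

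Further genes of the pathway came from 2 lists written with earlier results of these data known, so their direction is no independent evidence. Of 32 other components of the pathway, 9 were tested, with a median change of 0.02. An unadjusted p under 0.05 was found for 0 of 9, beside 5.1% of protein-coding genes tested. The lipopolysaccharide binding protein gene Lbp differed by 0.36 ± 0.22, Rbck1, a subunit of the linear ubiquitin ligase, by -0.34 ± 0.40, the Toll-like receptor adaptor gene Ticam1 by -0.10 ± 0.14 and the interleukin receptor accessory gene Il1rap by 0.06 ± 0.20. Tollip, an inhibitor of Toll-like signalling chosen after its values were seen, was at 63.6 ± 4.99 FPKM in I/R and 62.7 ± 5.25 FPKM in Sham (0.02 ± 0.11).

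Of 30 textbook targets of NF-kB, 14 were tested, with a median change of 1.16. At an unadjusted p under 0.05, 9 were higher and 1, Bcl2l1, was lower (-0.86 ± 0.31), and 0 had an adjusted p under 0.05 (limma), where 3.43% of protein-coding genes were higher and 1.67% lower at that unadjusted p. Every I/R heart was above every Sham heart for 5 of the 14 (8.83% of protein-coding genes), named Ccl4, Socs3, Sele, Gadd45b and Irf1, and below for 1 (5.12%), Bcl2l1. Irf1 and Bcl2l1 are named after their values were seen. The chemokine gene Ccl4 differed by 2.01 ± 0.37, the endothelial adhesion gene Sele by 1.93 ± 0.51, the cytokine signalling inhibitor gene Socs3 by 1.66 ± 0.34 and the stress gene Gadd45b by 1.03 ± 0.28. Beside these, Nfkbie differed by 1.39, Nfkbib by 0.71 and the receptor gene Tlr4 by 0.14.

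Reads of neighbouring genes could bear on some of these values, since 12 of the 54 genes were overlapped in span by another gene of the table, by 14 in all and 13 of them on the opposite strand. None of the 14 spans overlapped Nfkbie, Cd14, Tlr4, Tnfrsf21, Tnf or Tnfaip6. Casp8 shared 3841 bases with the lncRNA Gm37760 on the same strand, which was at 13.0 ± 2.67 FPKM in I/R and 17.2 ± 1.78 FPKM in Sham (-0.39 ± 0.19; limma, unadjusted p = 0.0778). FPKM of lncRNAs and protein-coding genes were scaled by different totals and their levels are not compared.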

How the data were processed

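Libraries were analysed from 3 I/R hearts and 3 Sham hearts. FPKM values per transcript were computed by the authors and deposited in 1 table. HISAT2 2.1.0 and HTSeq 0.10.0 appear in the submitters' processing notes, with fastp 0.23.0. Neither annotation nor strand setting is stated there.

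Of 21198 rows, 40 repeated another and were dropped. FPKM were summed per gene. Of 8614 genes compared with RefSeq GRCm38 spans, 99.9% overlapped by at least 50% of the shorter span. The reads behind each FPKM were recovered by inferring library totals and transcript lengths from the FPKM values and the listed spans. This gave whole reads within 0.001 for 11744 of 11745 protein-coding rows. On simulated rows, 98.2% of 1947 gave every read count exactly. The shortest length of at least 200 bases that gave whole reads was taken. Counts that share a divisor with the length can therefore come out too low, mostly in rows with few reads.

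Genes averaging 0.5 FPKM or more over the 6 hearts were fitted as log2(FPKM + 1) with limma 3.58.1 in R 4.3.3 (group only, variance trend, two-sided, Benjamini-Hochberg over 12114 genes). The limma procedure was tested on simulated data, with a spread between hearts that was set and not estimated from these hearts. Tables were handled in Python 3.11.15 with pandas 2.3.3. Members and lists were chosen with earlier results of these data known. Members given for every heart were those at an unadjusted p under 0.05, up to 3 of the most abundant tested per role, and 20 names in any case (8 analysed). Tnfrsf13b was added outside this rule. Of each further list, the 4 tested genes with the smallest p were named. In all, 16 alternatives were run. The values of 1 tested gene are not reported here, and it stays in the counts and medians.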

Additional observations from a re-analysis of the deposited data

How the results depend on the processing

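Over 16 alternatives, 0 genes were called in any (limma or voom, adjusted p under 0.05). Nfkbie, Nfkbib and Cd14 kept their direction and an unadjusted p under 0.05 in all 16. The number of the examined genes higher at that p was 4, and 3 to 5 with 1 heart left out. It was 5 with voom and 5 with protein-coding genes alone. Tnf had an unadjusted p of 0.0327 with limma voom and of 0.0422 with limma on protein-coding genes alone. With no filter 1 was lower, Tnfrsf17 (12 reads). The median change of the receptors was 0.09, and 0.16 with a pseudocount of 0.1 and 0.0412 with no filter. That of the inhibitors was 0.71, and 1.16 with a pseudocount of 0.1, 1.05 with a filter at 1 FPKM, which leaves out Tnip3, 1.145 with voom and 0.29 with Tnfaip8l2 counted among them, a grouping added after seeing the data. That of all tested members was 0.06, and 0.14 with a pseudocount of 0.1, 0.12 with a filter at 1 FPKM and 0.0091 with no filter. With 1 heart left out these medians ran from 0.07 to 0.13, 0.60 to 0.78 and 0.00139 to 0.12.

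Signs of small changes turned. Casp8 was at -0.02 with a pseudocount of 0.1 and at -0.00011 with median-ratio scaling, and Ikbkb at 0.22 with the most abundant transcript. With voom, Ikbkb was at 0.41, Tnfrsf21, Tnfrsf11a and Nfkbil1 at -0.02, Traf3ip1 at -0.05, Casp8 at -0.11 and Il1rap at -0.0036. With 1 heart left out, changes ran from -0.59 to 0.28 for Tnfsf18, -0.02 to 0.13 for Tnfrsf21, -0.08 to 0.18 for Tnfrsf11a, -0.43 to 0.10 for Tnfrsf14, -0.10 to 0.15 for Casp8, -0.09 to 0.21 for Traf3ip1, -0.09 to 0.15 for Nfkbil1, -0.06 to 0.17 for Il1rap and -0.28 to 0.06 for Tnfaip8l2. The cause was not tested.

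Replicate numbers are shared by the groups, but nothing in the labels ties same-numbered hearts together. Their deviations correlated by 0.153, 0.0283 and 0.0287 for numbers 1, 2 and 3, and not every heart correlated best with its own number. With a replicate block 0 genes were called (smallest adjusted p = 0.115) and 4 of the examined genes were higher at an unadjusted p under 0.05. Depth limits the 27 genes under the filter, of at most 116 reads over 6 hearts. P-values cover the spread between these hearts only.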
